A study of Mus musculus with 16 samples.

Results

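The genes described here encode 10 serotonin (5-hydroxytryptamine) receptors of the mouse, Htr1a, Htr1b, Htr1d, Htr1f, Htr2a, Htr2c, Htr3a, Htr4, Htr5a and Htr7. They were chosen by name and not by a measured value, and are 10 of the 37583 genes counted. RNA was sequenced from the cortex and the cerebellum of 8 C57BL/6J mice, 4 wild-type and 4 carrying the Slc39a8 A391T (A393T) mutant allele, which gave 16 libraries. The study's methods describe frontal cortex and cerebellum, bluntly dissected and snap-frozen, from male wild-type mice, and give 12 weeks as the age of the wild-type mice. The labels give no zygosity, sex or age for the A391T mice, and the variant changes a residue of a metal transporter, so the level of Slc39a8 (from 2.14 to 2.75 TPM as group means) does not check the genotype.

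Counts on genes ranged from 20813432 to 30497206 per library. For 4 of the 8 mice (those of CTX447, CTX448, CTX461 and CTX462) the deposited RPKM table carries the values of a mouse of the other genotype under the same name, in both regions, so the genotype of these mice is in doubt while their region is not. The genotypes below follow the names of the count files, and the results under the names of the table, and without these mice, are given where they differ. Levels are given as TPM, a unit in which counts are corrected for gene length and every library has one total. Libraries keep the names of the labels, CTX for cortex and CBLM for cerebellum with the number of the mouse. The cortex list of neuronal markers summed to between 452 and 517 TPM in cortex and to between 11.9 and 16.3 TPM in cerebellum, and the cerebellum list to between 34.6 and 47.5 TPM in cortex and to between 4867 and 5359 TPM in cerebellum. The cerebellum libraries differed widely in genes of the choroid plexus, the epithelium that secretes cerebrospinal fluid, from 53.3 to 8183 summed TPM, and the cortex libraries in genes of the striatum, the structure beneath the cortex, from 445.3 to 1590 summed TPM. In bulk tissue, fewer cells that use a receptor and less receptor RNA per cell cannot be told apart.

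Serotonin is made by neurons of the brainstem raphe nuclei, whose axons reach nearly all of the brain, and it acts through receptors that the target cells make. Receptors of the 5-HT1 and 5-HT5 families couple to Gi/o proteins and lower cyclic AMP, those of the 5-HT2 family couple to Gq and phospholipase C, and the 5-HT4, 5-HT6 and 5-HT7 receptors couple to Gs and raise cyclic AMP. The 5-HT3 receptor is instead a cation channel opened by serotonin. In the forebrain, pyramidal cells, interneurons and axon terminals carry different sets of these receptors.

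The promoters of Htr1a and Htr2a, whose RNA was far higher in cortex, and of Htr1b and Htr2c, which differed least between the regions in wild-type mice, are shown so that the sequences before both kinds of gene can be compared. They are the 250 bases before the annotated start in RefSeq (build GRCm38.p6), where 8 of the 10 receptors matched, Htr3a and Htr4 being the others. The windows lie at chr13:105443443-105443692 on the plus strand for Htr1a, chr14:74640624-74640873 on the plus strand for Htr2a, chr9:81633833-81634082 on the minus strand for Htr1b and chrX:146962263-146962512 on the plus strand for Htr2c. Capitals mark matches, on either strand, to a GC box (GGGCGG) or a CCAAT box (CCAAT).
Htr1a: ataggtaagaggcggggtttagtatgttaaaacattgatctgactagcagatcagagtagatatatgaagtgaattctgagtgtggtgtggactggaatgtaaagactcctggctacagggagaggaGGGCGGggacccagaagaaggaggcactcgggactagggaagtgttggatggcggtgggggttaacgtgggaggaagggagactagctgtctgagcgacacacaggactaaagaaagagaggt
Htr2a: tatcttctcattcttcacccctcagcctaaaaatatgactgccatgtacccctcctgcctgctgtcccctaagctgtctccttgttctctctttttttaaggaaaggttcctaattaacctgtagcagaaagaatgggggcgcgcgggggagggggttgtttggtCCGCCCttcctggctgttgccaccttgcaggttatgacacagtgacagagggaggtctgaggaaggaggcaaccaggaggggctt
Htr1b: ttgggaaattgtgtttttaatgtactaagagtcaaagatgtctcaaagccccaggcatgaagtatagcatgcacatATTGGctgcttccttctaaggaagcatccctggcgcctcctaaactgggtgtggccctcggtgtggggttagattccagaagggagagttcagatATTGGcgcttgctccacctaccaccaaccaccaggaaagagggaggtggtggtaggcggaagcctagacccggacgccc
Htr2c: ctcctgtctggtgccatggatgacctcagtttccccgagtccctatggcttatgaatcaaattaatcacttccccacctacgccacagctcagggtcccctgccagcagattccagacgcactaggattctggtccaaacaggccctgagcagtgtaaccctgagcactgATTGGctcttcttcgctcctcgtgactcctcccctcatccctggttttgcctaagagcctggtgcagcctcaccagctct

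Of the windows printed, those of Htr1a and Htr2a each held 1 GC box, 123 and 85 bases before the start. The Htr1b window held CCAAT boxes at 174 and 79 bases and the Htr2c window 1 at 80 bases, in each case on the opposite strand. None of these 4 windows held a TATA box (TATAAA) or a cAMP response element (TGACGTCA), searched on both strands. Of 32851 promoter windows of the same length, 32.7% held a GC box, 33.9% a CCAAT box, 12.4% a TATA box and 1.55% a cAMP response element. Over the 8 receptors with a window the letters did not sort by region. Htr1d, lower in cerebellum by under 2-fold in wild-type and just over 2-fold in A391T mice, had a GC box and a CCAAT box in one window. It had 3 GC boxes in its other window. Htr1f, Htr5a and Htr7, higher in cortex, had no match to any of the 4 motifs. A match is a match of letters only, and no binding was measured.

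In cortex, Htr2a had the most RNA per length of the 10 receptors, at 34.1 ± 6.51 TPM (SD, n = 8 mice). Htr1a (17.1 ± 2.51 TPM), Htr5a (16.3 ± 1.75 TPM) and Htr3a (15.5 ± 1.87 TPM) followed, and then Htr2c (11.5 ± 3.12 TPM) and Htr7 (8.34 ± 1.15 TPM). Htr1f (4.61 ± 1.03 TPM), Htr1b (3.78 ± 0.711 TPM), Htr1d (1.65 ± 0.683 TPM) and Htr4 (0.855 ± 0.193 TPM) were lowest. Neighbours in this order were compared by an exact sign-flip test of their ratio within each library, two-sided, with adjustment over 18 neighbour pairs of both regions, in which 0.0078 is the smallest p that 8 mice allow. Htr2a exceeded Htr1a in 8 of 8 libraries (adjusted p = 0.0352), and so did Htr7 against Htr1f and Htr1b against Htr1d, with the same p by the exact test. Htr3a exceeded Htr2c, and Htr2c exceeded Htr7, in 7 of 8 libraries each (adjusted p = 0.0469, exact test), but both calls depend on gene length. With the exon bases of the annotation (3399 in place of 5047 for Htr7, 9328 in place of 8402 for Htr2c, an alternative chosen after seeing the data), Htr7 at 12.4 ± 1.70 TPM came between Htr3a and Htr2c (10.4 ± 2.81 TPM), and neither step passed (adjusted p = 0.0703 and 0.258, exact test). Neighbours among Htr1a, Htr5a and Htr3a did not differ beyond their spread, nor did Htr1f and Htr1b or Htr1d and Htr4.

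The order in cerebellum was another. Htr2c (6.24 ± 2.94 TPM), Htr5a (5.47 ± 0.747 TPM) and Htr1b (5.29 ± 1.87 TPM) led there, without a difference between neighbours beyond the spread over 8 mice. Htr1b exceeded the next receptor, Htr7 (1.67 ± 0.436 TPM), in 8 of 8 libraries (adjusted p = 0.0352, exact sign-flip test). Htr2a (1.38 ± 0.567 TPM), Htr1d (0.948 ± 0.261 TPM), Htr1a (0.675 ± 0.646 TPM), Htr1f (0.293 ± 0.119 TPM), Htr3a (0.179 ± 0.203 TPM) and Htr4 (0.178 ± 0.148 TPM) followed, and no neighbours among them were separated. In the plot of levels by library, Htr1a and Htr4 in cerebellum spread over more than a factor of 10, at from 1 to 57 counts per library. With the exon bases of the annotation, Htr7 was at 2.47 ± 0.647 TPM, the step from Htr1b to Htr7 did not pass (6 of 8 libraries, adjusted p = 0.0703, exact test), and that from Htr7 to Htr2a did (8 of 8, adjusted p = 0.0352, exact test). The place of Htr1b also depends on its gene model (below).

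**Figure D1:**
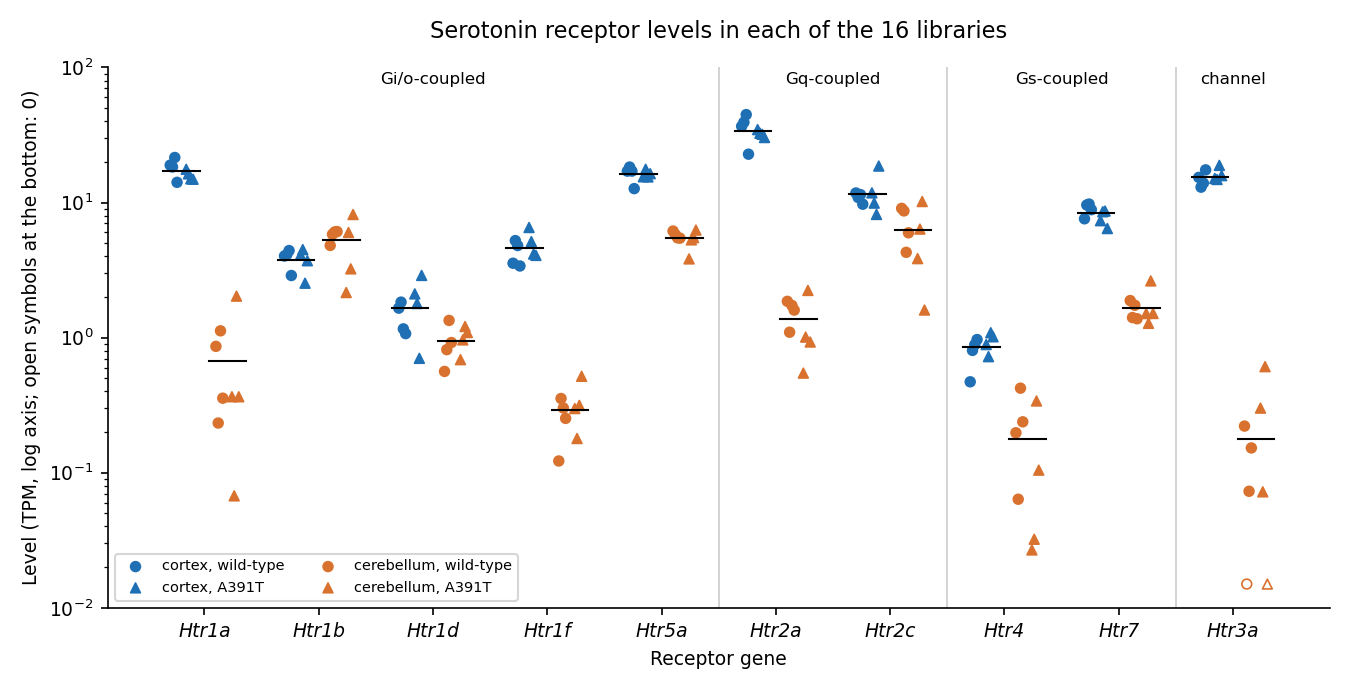
Level of each serotonin receptor gene in each of the 16 libraries (vertical axis, TPM on a log scale; circles are wild-type and triangles A391T mice, blue is cortex and orange cerebellum, black lines are means over the 8 mice of a region, and open symbols at the bottom are libraries with 0 counts). Htr2a, Htr1a and Htr3a sit at means of 34.1, 17.1 and 15.5 TPM in cortex and 1.38, 0.675 and 0.179 TPM in cerebellum. For Htr1b (means 3.78 and 5.29 TPM), Htr1d (1.65 and 0.948 TPM) and Htr2c (11.5 and 6.24 TPM) the symbols of the regions overlap over the 8 mice.

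Within each genotype, cerebellum was set against cortex, since the study asks how the brain regions differ. The call rule was an adjusted p (edgeR's quasi-likelihood test) under 0.05 together with a difference of at least 2-fold. In wild-type mice 7 of the 10 receptors were called, all higher in cortex, against 24.7% of all 16040 genes tested in either direction and 14.2% called higher in cortex. In A391T mice 9 of the 10 were called, again all higher in cortex, against 24.7% of 16005 genes in either direction and 14.9% higher in cortex. The regions come from the same mice, and with the mouse as a replicate block 7 of the 10 were called in each genotype, Htr1d and Htr2c losing their call in A391T mice, as they did with library totals in place of TMM scaling. The median log2 fold change (cerebellum over cortex) of the 10 receptors was -2.26 in wild-type and -2.64 in A391T mice, where that of all genes tested was 0.02 and 0.03. Htr1b was the receptor that was called in neither genotype.

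Among the Gi/o-coupled receptors, Htr1a (NCBIM37 chr13:106233773-106238213, a gene of 1 exon) encodes the autoreceptor of serotonin neurons that is also an inhibitory receptor of pyramidal cells. Its level in wild-type cortex was 18.9, 18.3, 21.5 and 14.1 TPM in CTX447, CTX448, CTX479 and CTX480, and in the cerebellum of the same mice, in the same order as for all receptors below, 0.862, 0.233, 1.12 and 0.356 TPM. Every cortex library was over 10 times any wild-type cerebellum library. The log2 fold change was -4.97 ± 0.29 (SE, adjusted p = 5.06e-08), a ratio of mean TPM of 28.3. In A391T mice the log2 fold change was -4.63 ± 0.52 (adjusted p = 2.73e-05), and CBLM461, at 2.03 TPM, was well above the 0.0674 to 0.365 TPM of the other 3. Left out, that library gave way to a value of -5.94.

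Htr1f (chr16:64924555-65105610), a receptor with high affinity for triptans, was lower in level but nearly as regional. Wild-type cortex had 3.55, 5.22, 4.80 and 3.39 TPM and wild-type cerebellum 0.122, 0.354, 0.301 and 0.252 TPM, the latter from 2 to 6 counts. The groups did not overlap, and the log2 fold change was -4.15 ± 0.28 (adjusted p = 1.45e-07) in wild-type and -4.01 ± 0.29 (adjusted p = 1.01e-06) in A391T mice.

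Htr5a (chr5:28168487-28181626), a Gi/o-coupled member of the 5-HT5 family, had the smallest coefficient of variation of the 10 receptors over the 8 mice of each region, 10.8% in cortex and 13.7% in cerebellum, though Htr2c, Htr7 and Htr3a varied less within wild-type cortex. It measured 17.1, 18.3, 17.1 and 12.7 TPM in wild-type cortex and 6.15, 5.79, 5.48 and 5.45 TPM in wild-type cerebellum. The regions stayed apart in both genotypes, at a log2 fold change of -1.66 ± 0.11 (adjusted p = 1.91e-07) and, in A391T mice, -1.75 ± 0.12 (adjusted p = 6.67e-07). At 5.47 TPM over 8 mice its mean was the highest of the Gi/o-coupled receptors in cerebellum, without a difference from Htr1b beyond the spread (adjusted p = 0.506, exact sign-flip test). Per base that no other gene shares, Htr1b would be above it, at 16.0 TPM (below).

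Htr1d (chr4:135979439-136000313), a presynaptic inhibitory receptor, was lower in cerebellum by an amount near the 2-fold cutoff, and its call was not stable. Wild-type cortex had 1.65, 1.83, 1.16 and 1.07 TPM and wild-type cerebellum 0.562, 0.815, 1.34 and 0.920 TPM. The groups overlapped, since CBLM479 was above CTX479 and CTX480. The log2 fold change of -0.82 ± 0.27 had an adjusted p of 0.0208 but was under 2-fold, and without CBLM479 it was -1.08 and called. In A391T mice it was -1.06 ± 0.37 (adjusted p = 0.0308) and called, but in 6 of the 8 fits that left out 1 library it was not (adjusted p up to 0.105), namely without CTX445, CTX446, CTX462, CBLM445, CBLM446 or CBLM462. With the mouse as a replicate block the A391T value was -0.97 (adjusted p = 0.0610). Under the names of the RPKM table Htr1d was at -0.54 (adjusted p = 0.243) in wild-type and -1.38 (adjusted p = 8.53e-05) in A391T mice, and with the 4 mice whose names agree at -0.15 (adjusted p = 0.731) and -1.31 (adjusted p = 0.0186).

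Htr1b (chr9:81524950-81526222), the terminal autoreceptor that limits transmitter release, was the exception in direction. Its level was 4.02, 4.12, 4.41 and 2.88 TPM in wild-type cortex and 4.81, 5.82, 6.06 and 6.09 TPM in wild-type cerebellum. The cerebellum was higher in each wild-type mouse, but the log2 fold change of 0.41 ± 0.17 did not pass (adjusted p = 0.0525, 95% interval 0.03 to 0.78). In A391T mice the cerebellum ranged from 2.16 to 8.15 TPM and the log2 fold change was 0.26 ± 0.37 (adjusted p = 0.552), which turned to -0.08 without CBLM462 and to -0.17 when only the mice of CTX445 and CTX446 were used. The gene model used has 1273 exon bases, of which 852 (66.9%) are shared with D430036J16Rik on the other strand. By the names of the count files the counting did not use strand, in which case reads in the shared part cannot be assigned and are left out. Per base that no other gene shares (421 bases), Htr1b would have 11.4 ± 2.15 TPM in cortex and 16.0 ± 5.65 TPM in cerebellum, sixth and first in the order of the 10 receptors, an alternative chosen after seeing the data.

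Of the Gq-coupled receptors, Htr2a (chr14:75040647-75106666) encodes the receptor of cortical pyramidal cells on which classical hallucinogens act. It had 36.7, 39.3, 44.7 and 22.8 TPM in wild-type cortex and 1.86, 1.10, 1.73 and 1.60 TPM in wild-type cerebellum. The lowest cortex library, CTX480, was still over 10 times the highest wild-type cerebellum library. The log2 fold change was -4.66 ± 0.23 (adjusted p = 1.10e-08) in wild-type and -4.91 ± 0.27 (adjusted p = 1.40e-07) in A391T mice.

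Htr2c (chrX:143397056-143631820), whose transcript is edited from A to I and which the choroid plexus is known to make in quantity, differed much less. Wild-type cortex had 11.8, 10.9, 11.4 and 9.72 TPM and wild-type cerebellum 9.05, 8.66, 4.28 and 5.97 TPM. The groups were adjacent without overlap, and the log2 fold change of -0.79 ± 0.20 had an adjusted p of 0.00481 but was under 2-fold. In A391T mice cortex had 11.8, 9.90, 8.16 and 18.6 TPM in CTX445, CTX446, CTX461 and CTX462, and the cerebellum of the same mice had 3.84, 6.36, 10.2 and 1.60 TPM. These groups overlapped, and the log2 fold change was -1.26 ± 0.46 (adjusted p = 0.0348).

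That call for Htr2c in A391T mice rested on few libraries. It was not made without CTX445, CTX462, CBLM446 or CBLM462, with values from -0.95 to -1.71 over the 8 fits that left out 1 library, nor with the mouse as a replicate block (-1.37, adjusted p = 0.0757), nor by DESeq2 (-1.26, adjusted p = 0.0538). When libraries were named as in the RPKM table the genotypes traded places, with -1.28 and a call in mice named wild-type and -0.79 with no call in mice named A391T.

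The Gs-coupled receptor Htr7 (chr19:36033224-36131997), which takes part in the setting of the circadian clock, had 7.58, 9.59, 9.74 and 8.85 TPM in wild-type cortex and 1.88, 1.41, 1.74 and 1.38 TPM in wild-type cerebellum. All cortex values lay above all cerebellum values. Its log2 fold change was -2.63 ± 0.13 (adjusted p = 1.29e-08), and in A391T mice -2.26 ± 0.20 (adjusted p = 5.75e-06).

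Htr4 (chr18:62483858-62627456), the other Gs-coupled receptor of the 10, was the lowest in cortex. Its level was 0.471, 0.804, 0.887 and 0.968 TPM in wild-type cortex and 0.197, 0.0636, 0.422 and 0.238 TPM in wild-type cerebellum, where it rested on 2 to 13 counts. The lowest cortex library lay just above the highest cerebellum library. The log2 fold change was -1.89 ± 0.39 (adjusted p = 0.00129) in wild-type and -3.02 ± 0.49 (adjusted p = 0.000375) in A391T mice. CBLM461, at 0.340 TPM, was the highest of its group, and the A391T value was -4.15 without it.

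Htr3a (chr9:48707319-48719204) encodes the obligate subunit of the serotonin-gated channel and marks a class of cortical interneurons. It had the largest difference of the 10 receptors in both genotypes. Wild-type cortex had 15.4, 13.0, 13.9 and 17.4 TPM and wild-type cerebellum 0.221, 0, 0.0729 and 0.153 TPM, which is 6 counts in all over the 4 cerebellum libraries. The log2 fold change was -7.11 ± 0.31 (adjusted p = 4.12e-09). In A391T mice it was -6.07 ± 0.38 (adjusted p = 3.92e-07) with 14 counts in the cerebellum, 8 of them in CBLM461, and -6.86 without that library. Of the 8 genes listed as markers of this interneuron class, 4 were called higher in cortex and 3 higher in cerebellum in wild-type mice, beside 14.2% of all genes called higher in cortex and 24.7% in either direction, among them Vip at a log2 fold change of -6.79 and Calb2, which cerebellar granule cells also make, at 4.91.

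**Figure D2:**
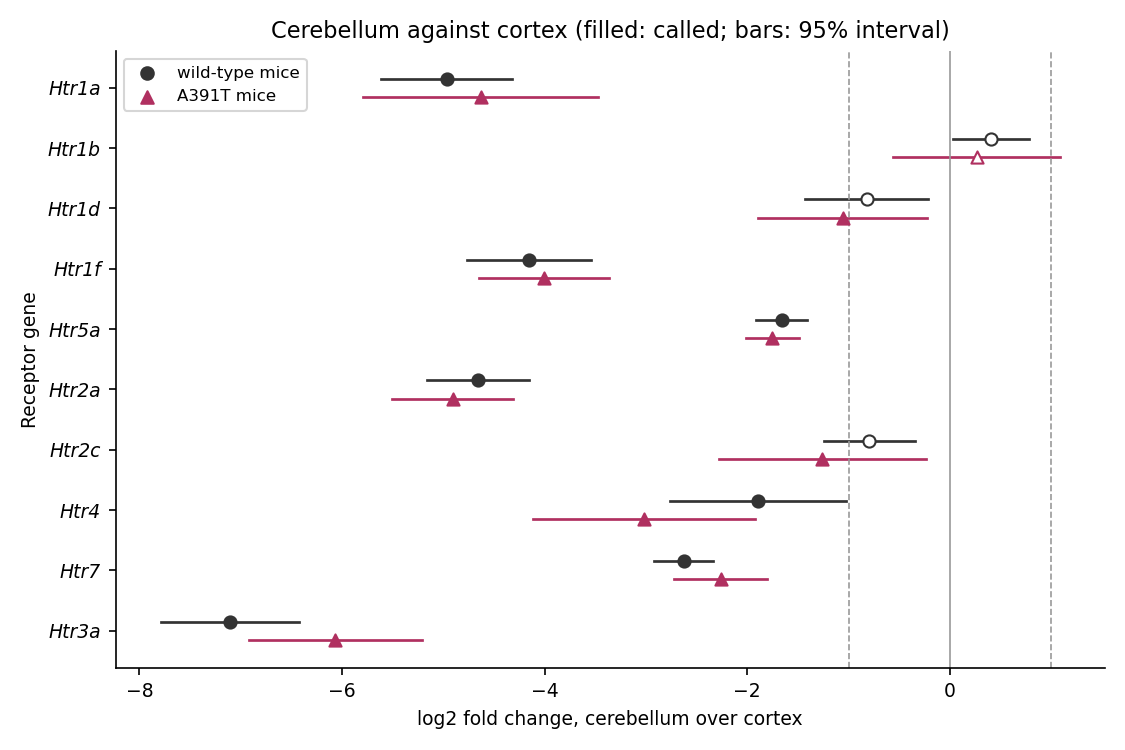
Log2 fold change of cerebellum over cortex for each receptor gene (horizontal axis) in wild-type (circles) and A391T mice (triangles), with 95% intervals; filled symbols were called and dashed lines mark a 2-fold difference. Htr3a lies farthest to the left at -7.11 and -6.07, and Htr1b alone lies to the right of 0, at 0.41 and 0.26.

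Summed over all 14 serotonin receptor genes in the files (the 10 with Htr2b, Htr3b, Htr5b and Htr6), cortex held 126 ± 11.4 TPM and cerebellum 23.8 ± 4.44 TPM (n = 8 mice). Gi/o-coupled receptors made up 35.5% ± 1.49 of the sum in cortex and 55.7% ± 9.84 in cerebellum. Gq-coupled receptors made up 36.1% ± 2.68 and 31.7% ± 9.58, and Gs-coupled receptors 15.9% ± 1.18 and 11.7% ± 2.23. The channel subunits fell from the picture in cerebellum, at 0.864% ± 0.778 against 12.5% ± 2.55 in cortex. The Gi/o share was above that of every cortex library in each of the 8 cerebellum libraries, from 42.5% to 75.7% against 32.7% to 37.2%. In TPM, though, the Gi/o sum was lower in cerebellum, at 13.1 ± 2.53 against 44.9 ± 4.96 in cortex. The highest Gi/o shares were those of CBLM462 (75.7%) and CBLM479 (60.0%), the libraries with the least choroid plexus RNA, and CBLM462 had the lowest Gq share (12.8%), a link that was not tested. Within the cerebellum, Htr2c alone took 25.6% ± 9.32 of the sum, Htr5a 23.3% ± 2.91 and Htr1b 22.4% ± 8.08. All these shares use the Htr1b level over its whole gene length and so depend on its gene model (above).

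**Figure D3:**
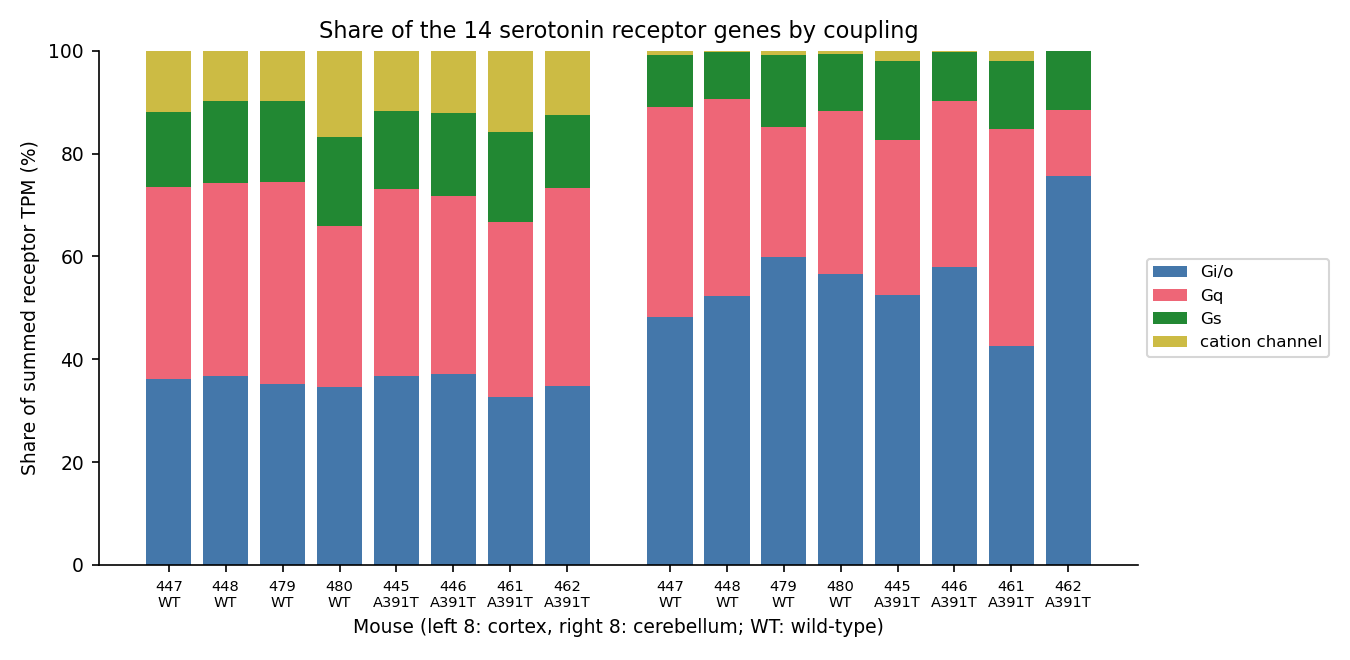
Share of the summed TPM of the 14 serotonin receptor genes (vertical axis, percent) taken by Gi/o-, Gq- and Gs-coupled receptors and by channel subunits, 1 bar per library with cortex on the left and cerebellum on the right (WT, wild-type). The Gi/o share is between 32.7% and 37.2% in cortex and between 42.5% and 75.7% in cerebellum, highest in CBLM462 and CBLM479, the libraries low in choroid plexus genes. The summed Gi/o level is lower in cerebellum, at a mean of 13.1 TPM against 44.9 TPM in cortex.

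The comparison of A391T with wild-type mice asks whether the variant goes with other receptor levels. In cortex all 10 receptors were tested and 0 were called, against 0.0126% (2 of 15815 genes). Their log2 fold changes (A391T over wild-type) ran from -0.23 for Htr7 to 0.37 for Htr1d, with an adjusted p of 1.00 for each and 0 of the 10 at an unadjusted p under 0.05. Htr7 came nearest, at 7.58, 9.59, 9.74 and 8.85 TPM in wild-type and 7.34, 8.54, 8.64 and 6.42 TPM in A391T cortex. These groups overlapped (log2 fold change -0.23 ± 0.11, 95% interval -0.47 to 0.01). Htr1a was next at -0.21 ± 0.11 (interval -0.45 to 0.03). For 9 of the 10 receptors the interval lay within a 2-fold difference in either direction, and Htr1d, with an upper limit of 1.12, was the exception. These intervals, and those in cerebellum below, bound a genotype difference only if the names of the count files are right.

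In cerebellum 7 of the 10 receptors passed the filter on low counts, and 0 were called, against 0% (0 of 15668 genes, 1340 of them at an unadjusted p under 0.05). The log2 fold changes ran from -0.38 for Htr2a to 0.16 for Htr7, and the adjusted p from 0.651 to 0.942. The intervals of 4 of the 7 lay within a 2-fold difference, and that of Htr1a, from -1.62 to 1.93, was the widest. Htr1f, Htr3a and Htr4, left out by the filter, had means of 0.327, 0.246 and 0.126 TPM in A391T and 0.258, 0.112 and 0.230 TPM in wild-type cerebellum, with exact permutation p-values of 0.429, 0.514 and 0.343 where 0.029 is the smallest that 4 against 4 mice allow. DESeq2 called 0 of the receptors in either region, and 16 and 27 genes in all.

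The difference of the region effect between the genotypes was tested in all 16 libraries, and 0 of the 10 receptors were called, against 0% (0 of 16589 genes by edgeR, 805 of them at an unadjusted p under 0.05, and 1 by DESeq2). The largest differences were those of Htr4, at -1.11 ± 0.71 (log2, adjusted p = 0.769), and Htr3a, at 1.06 ± 0.81 (adjusted p = 0.769). For Htr2c and Htr1d, called in A391T but not in wild-type mice, it was -0.45 ± 0.53 (adjusted p = 0.819) and -0.22 ± 0.49 (adjusted p = 0.907), so that the regions were not shown to differ more in A391T mice. With the names of the RPKM table, or with the mice of CTX445, CTX446, CTX479 and CTX480 alone, 0 receptors were called by genotype in either region or by the interaction.

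**Figure D4:**
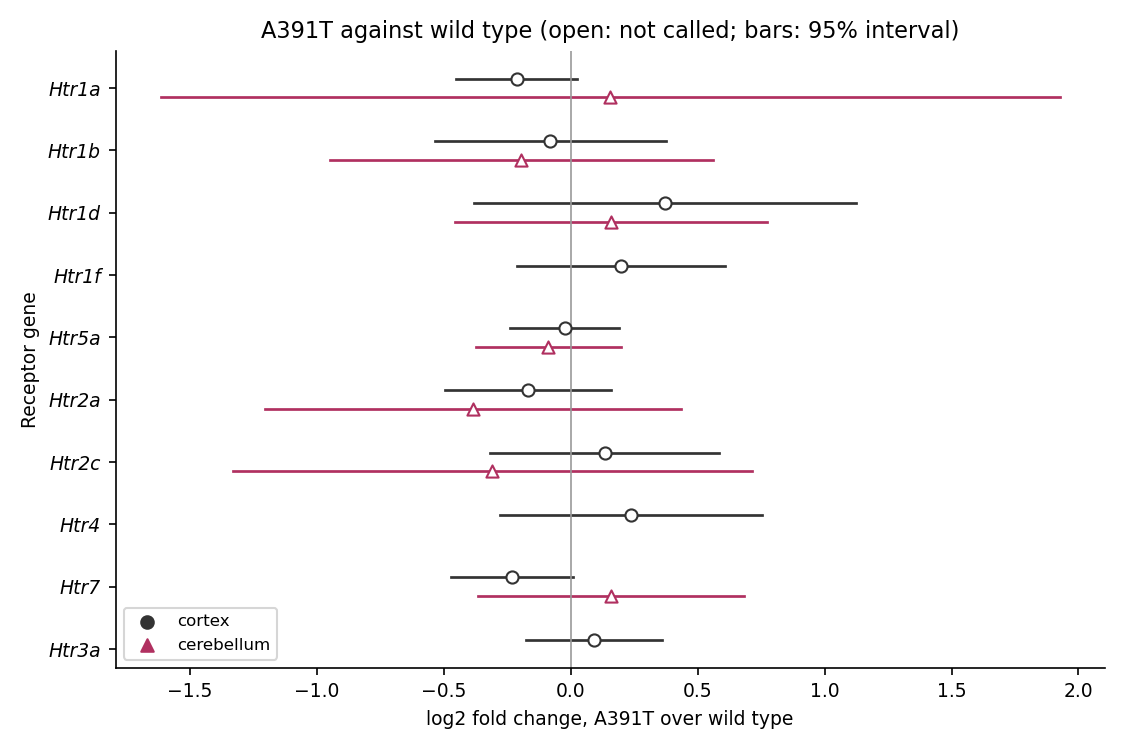
Log2 fold change of A391T over wild-type mice for each receptor gene (horizontal axis) in cortex (circles) and cerebellum (triangles), with 95% intervals; open symbols were not called, and Htr1f, Htr4 and Htr3a, left out by the filter on low counts in cerebellum, have no symbol there. All intervals include 0, and that of Htr1a in cerebellum, from -1.62 to 1.93, is the widest.

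Htr2c was set beside the choroid plexus list, whose 10 genes were all found. In cerebellum the list summed to 53.3 TPM in CBLM462 (A391T) and 55.5 TPM in CBLM479 (wild-type), and to between 2422 and 8183 TPM in the other 6. Htr2c was 1.60 and 4.28 TPM in those 2 libraries and from 3.84 to 10.2 TPM in the 6, so that CBLM479 lay above CBLM445 (3.84 TPM) despite its low list. Ttr, the transthyretin gene that choroid plexus makes most, ranged from 26.7 to 7939 TPM, and Sostdc1, another of its genes, was at 0 in CBLM462. The relation between log2 levels, the list taken as the mean over its genes, did not pass over all 8 libraries. Pearson's r was 0.81 (exact permutation p = 0.0135, adjusted p = 0.129) and Spearman's rho 0.71 (exact permutation p = 0.0576, adjusted p = 0.307). These libraries fall into 2 sets, and in the 6 alone the relation did not pass either. There r was 0.56 (exact permutation p = 0.249, adjusted p = 0.590 over 16 relations of receptors with lists) and rho 0.37 (exact permutation p = 0.497). Against CBLM479 alone the wild-type log2 fold change of Htr2c was -1.51, and against CBLM462 alone, the library lowest in Htr2c, the A391T value was -3.06. Wild-type Htr4 moved from -1.89 to -1.02 against CBLM479 alone. These are values of lone libraries picked after seeing the data and carry no test.

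In cortex, Htr2c ranked with the striatum list, of which 10 genes were found and none was at 0. The list was lowest in CTX461, at 445.3 TPM, and from 1107 to 1590 TPM in the other 7 libraries, and Htr2c was likewise lowest in CTX461 (8.16 TPM) and highest in CTX462 (18.6 TPM), which had the highest list. CTX462 also had the highest hippocampus list of the cortex libraries, at 393 TPM against 263 to 305 TPM, and the lowest cortex neuron list, at 452 TPM. Over the 8 cortex libraries Spearman's rho was 0.98 (exact permutation p = 0.000397, adjusted p = 0.00635), and Pearson's r was 0.71 (exact permutation p = 0.119, adjusted p = 0.316). Without CTX461 and CTX462, the libraries farthest from the median of the list, r was 0.92 (exact permutation p = 0.0153, adjusted p = 0.133). Within a genotype 4 libraries are too few for this relation. Htr1d (r = 0.77, exact permutation p = 0.0161) and Htr1b (r = 0.78, exact permutation p = 0.0282) had adjusted p-values of 0.129 and 0.150, and r of 0.36 and 0.53 without the same 2 libraries, so that their relations rest on those. Of the 16 relations over 8 libraries 0 passed by r and 1 by rho after adjustment. The share of striatal or choroid plexus tissue in these levels was not tested.

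**Figure D5:**
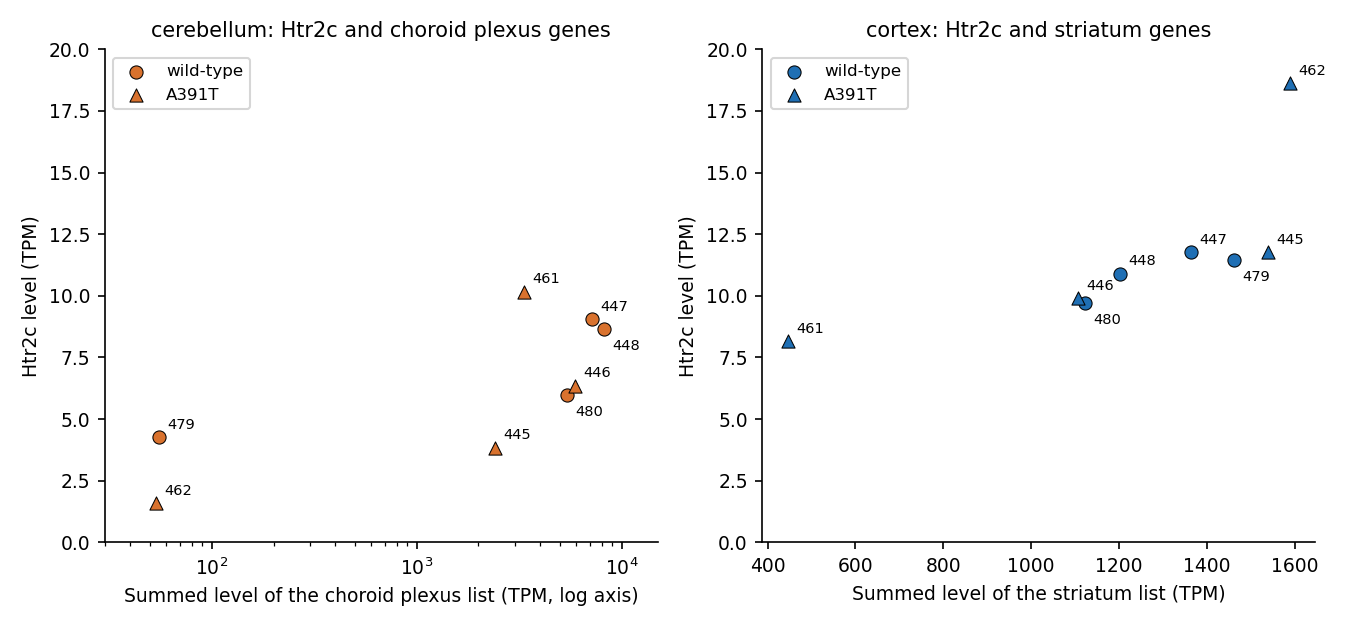
Level of Htr2c (vertical axis, TPM) against the summed level of choroid plexus genes in the 8 cerebellum libraries (left, log axis) and of striatum genes in the 8 cortex libraries (right), with the mouse number beside each point (circles wild-type, triangles A391T). CBLM462 and CBLM479 lie apart at 53.3 and 55.5 TPM of choroid plexus genes, and in cortex Htr2c runs from 8.16 TPM in CTX461 to 18.6 TPM in CTX462.

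The other serotonin receptors in the files followed the same direction where they could be tested. Htr6, a Gs-coupled receptor of forebrain neurons, had a log2 fold change of cerebellum over cortex of -3.64 ± 0.19 (adjusted p = 1.97e-08) in wild-type and -3.73 ± 0.12 (adjusted p = 4.52e-09) in A391T mice. Htr5b was at -2.08 ± 0.29 (adjusted p = 6.21e-05) in wild-type mice and passed the filter in that genotype alone. In A391T mice its means were 1.34 TPM in cortex and 0.477 TPM in cerebellum (exact permutation p = 0.0571, two-sided, where 0.0286 is the smallest possible). Htr2b and Htr3b, left out by the filter, had from 0 to 5 and from 0 to 2 counts per library, and the exact permutation test between regions gave p = 0.543 and 0.429 in wild-type and 0.971 and 0.429 in A391T mice.

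Of 15 genes for the synthesis, transport and breakdown of serotonin, 11 passed the filter in wild-type mice and 2 were called, 1 in each direction, where 24.7% of all genes tested were called. Slc22a3, a low-affinity transporter that takes up serotonin outside its neurons, was higher in cortex (log2 fold change -4.53), and Slc29a4, a plasma membrane monoamine transporter, was higher in cerebellum (3.13), and both were called in A391T mice too (-4.33 and 2.82). Tph2, the rate-limiting enzyme of serotonin synthesis in neurons, had between 0.497 and 1.76 TPM over the 16 libraries and did not differ beyond the threshold (-0.47 ± 0.30, adjusted p = 0.196). The serotonin transporter gene Slc6a4, at up to 0.194 TPM, and Fev, the transcription factor of serotonin neurons, at up to 0.143 TPM, did not pass the filter.

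All 15 G protein and arrestin genes were tested, and 3 were called in wild-type mice, each higher in cortex, namely Gng7 (-3.08), Gng2 (-1.42) and Gnaz (-1.38), a subunit of the inhibitory class, where 14.2% of all genes were called higher in cortex. Of the other alpha subunits of the Gi/o class, Gnao1 (-0.25, adjusted p = 0.0207) and Gnai3 (0.21, adjusted p = 0.0249) passed the test in opposite directions at under 2-fold, and Gnai1 (-0.01) and Gnai2 (-0.06) did not pass. Of 18 effector genes found, 17 were tested in wild-type mice, with 6 called higher in cortex and 4 higher in cerebellum, beside 24.7% of all genes called in either direction and 14.2% higher in cortex. The phospholipases split, as Plcb2 (-2.35) and Plcb1 (-1.87) were higher in cortex and Plcb4 (2.01) and Plcb3 (2.01) higher in cerebellum. Adcy2 (-2.27) and Adcy5 (-2.01), adenylyl cyclases, were higher in cortex, whereas Itpr1 (1.88), the calcium release channel of Purkinje cells, and Adcy1 (1.01) were higher in cerebellum. The median log2 fold change was -0.28 for effectors and -0.30 for G proteins and arrestins, where that of all genes was 0.02.

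Among 17 genes for receptor partners, chaperones and RNA editing enzymes, 6 were called higher in cortex and 1 higher in cerebellum in wild-type mice (all genes, 14.2% higher in cortex and 24.7% in either direction), with a median log2 fold change of -0.08. Rgs4 (-4.78) and Rgs2 (-2.06), which shorten signalling through Gi/o and Gq, led on the cortex side with Jakmip1 (-1.97) and Rgs19 (-1.52). Cnr1, the cannabinoid receptor, was higher in cerebellum (1.19). Adarb1, an enzyme that edits the Htr2c transcript, had a log2 fold change of 0.86 (adjusted p = 5.57e-05) that was under 2-fold. S100a10, which binds the Htr1b and Htr4 receptors, was at -0.51 (adjusted p = 0.00417), also under 2-fold. By genotype, and by the interaction, 0 genes of these 4 lists were called.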

How the data were processed

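Serotonin receptor RNA was measured by RNA-seq in cortex and cerebellum of 8 mice. The authors purified RNA, made polyA-selected directional libraries, aligned reads to mm9 with STAR and used HTSeq to count them by Ensembl gene. The names of the deposited count files state that strand was not used, and the methods describe directional libraries without stating how strand was counted. These raw counts, as deposited, are not normalized. The deposited RPKM table gave gene names and lengths, and its RPKM values served to compare library names. Of its 16 columns, 8 carried the name of another mouse. Coordinates and exon overlaps came from GENCODE vM1 on NCBIM37.

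Counts were tested with edgeR 4.0.16 (R 4.3.3, limma 3.58.1) with TMM factors and the default filterByExpr filter, using the quasi-likelihood test, and p-values were adjusted over the genes tested (Benjamini-Hochberg). Regions were called at adjusted p under 0.05 and at least 2-fold, genotypes and the interaction at adjusted p under 0.05. DESeq2 1.42.0 was an alternative. The scripts were tested on simulated data. TPM came from counts and table lengths, and log2 levels in relations used a pseudocount of 0.5 TPM. For ratios of neighbours 0.01 TPM was added. Intervals cover the spread between mice, and a count of 0 allows up to 3 counts.

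The 2 regions of a mouse share its number, so numbers pair the libraries. The correlation of the regions' deviations from their group means ran from -0.10 to 0.12 over the 8 mice. All 10 receptors are named. Of each other list, up to 4 genes per direction with the largest changes among those called in wild-type mice are named, and some others for their known link to a receptor, chosen after their values were seen. Genes with a pattern like a receptor's were to be named where its variation over 8 libraries exceeded 50% at 20 or more mean counts, and no receptor met this. The receptors and lists were chosen with earlier results of these data known. Alternatives were another scaling, filter, tool or set of libraries.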

Additional observations from a re-analysis of the deposited data

Results flagged for a closer look

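In groups of 4 libraries, the highest or lowest receptor level was compared with the others by Dixon's criterion at its 95% limit for 4 samples. Of 40 groups (10 receptors in 4 groups), 1 exceeded it, where chance flags about 1 in 20. Htr1a in CBLM461 (A391T) was 2.03 TPM (57 counts), and the other 3 libraries of the group ranged from 0.0674 to 0.365 TPM, which gave a ratio of gap to range of 0.848. Several marker lists were also highest there within the group by mean log2(TPM + 0.5). The hippocampus list was 2.91 against 2.03 to 2.25 in the other 3 libraries, the brainstem and serotonergic list 0.62 against -0.28 to 0.11, and the striatum list 3.36 against 2.52 to 2.64. The interneuron list was 4.98 against 4.42 to 4.58, the deep layer list 3.13 against 2.60 to 2.78, and the meninges and vessel list 4.86 against 4.70 to 4.85. By summed TPM only the hippocampus and brainstem lists of these were highest in CBLM461. By mean log2 the cortex neuron list was lowest in CBLM461, at 0.35 against 0.36 to 0.50 in the rest of the group. So was the Purkinje list, at 10.09 against 10.21 to 10.34, and the cerebellum and choroid plexus lists were neither highest nor lowest. In wild-type cerebellum CBLM479, highest in Htr1a at 1.12 TPM, likewise had the highest hippocampus (2.89), striatum (3.28), interneuron (4.96), deep layer (3.07) and vessel (4.89) lists by mean log2, but not the highest brainstem list (-0.12, against 0.47 in CBLM447), and by summed TPM only the hippocampus and deep layer lists of these were highest there. The part of these lists in the Htr1a level was not tested.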

How the results depend on the processing

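All region results kept their direction for 9 receptors under every alternative run. The counts of receptors called stayed within 1.5 times of 7 and 9, from 7 to 9 in wild-type and from 7 to 9 in A391T mice, and by genotype and interaction they stayed at 0, but single receptors moved in and out. In wild-type mice Htr2c gained its call under the names of the RPKM table (-1.28, and -1.37 with the block), with the mice of CTX479 and CTX480 alone (-1.21) and by adjusted p alone. In A391T mice Htr1d and Htr2c were not called when tested against a 2-fold change. Leaving out 1 library gave 7 to 8 calls in wild-type and 7 to 9 in A391T mice, and 0 by genotype or interaction. In A391T mice the calls of Htr1d (-0.92, adjusted p = 0.0509) and Htr2c (-1.12, adjusted p = 0.0547) were also lost with library totals in place of TMM, and that of Htr2c with DESeq2 (-1.26, adjusted p = 0.0538). With the mouse as a replicate block, 7 receptors were called in wild-type and 7 in A391T mice, where Htr1d and Htr2c lost their call, and 0 by the interaction; no other call changed. Of 18 neighbour pairs, 6 were separated, 7 by CPM, 6 with TPM rescaled by TMM factors, 6 with Htr1b per unshared base and 4 with exon bases of the annotation as lengths. The order of wild-type mice alone has no test. The alternatives under the names of the RPKM table with the block, with choroid-poor cerebellum libraries alone and for gene lengths were chosen after seeing the data.

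Signs turned only for values that were not called, and their cause was not tested. For A391T over wild-type in cortex, under the names of the RPKM table, the log2 value of Htr1a was 0.12, Htr1b 0.29, Htr2a 0.14, Htr2c -0.13, Htr3a -0.19, Htr4 -0.46 and Htr5a 0.15. With the mice of CTX445, CTX446, CTX479 and CTX480 alone, the log2 value of Htr1b was 0.21, Htr3a -0.10, Htr4 -0.23 and Htr5a 0.13. With 1 cortex library left out, the log2 value of Htr1b was from -0.18 to 0.064, Htr2c from -0.16 to 0.29 and Htr5a from -0.11 to 0.028. For A391T over wild-type in cerebellum, under the names of the RPKM table, the log2 value of Htr1a was -1.28, Htr1d -0.53, Htr2c 0.39 and Htr7 -0.19. With the mice of CTX445, CTX446, CTX479 and CTX480 alone, the log2 value of Htr1a was -1.57, Htr1d -0.35, Htr2c 0.10 and Htr7 -0.035. With 1 cerebellum library left out, the log2 value of Htr1a was from -1.18 to 0.55, Htr1b from -0.54 to 0.036, Htr1d from -0.0083 to 0.39, Htr5a from -0.17 to 0.0023 and Htr7 from -0.10 to 0.29. For the interaction, under the names of the RPKM table, the log2 value of Htr1a was -1.41, Htr1f -0.75, Htr2c 0.50, Htr3a -0.16 and Htr7 -0.17. With the mice of CTX445, CTX446, CTX479 and CTX480 alone, the log2 value of Htr1a was -1.48, Htr1f -0.56 and Htr2c 0.067. Over fits with 1 of the 16 libraries left out, the log2 value of Htr1a was from -0.97 to 0.75, Htr1b from -0.47 to 0.11, Htr1d from -0.49 to 0.085, Htr1f from -0.10 to 0.36, Htr2a from -0.72 to 0.00072 and Htr5a from -0.16 to 0.022. For cerebellum over cortex in A391T mice, with the mice of CTX445 and CTX446 alone, the log2 value of Htr1b was -0.17. With 1 A391T library left out, the log2 value of Htr1b was from -0.076 to 0.51. For the choroid plexus list, r turned from negative to 0.90 for Htr1b and to 0.84 for Htr5a when CBLM462 and CBLM479 were left out (adjusted p = 0.133 for both, exact permutation test).

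Receptors with under 10 counts in a library limit what cerebellum can show.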

Other observations

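In CBLM461 and CTX480 receptors of different coupling were together highest or lowest of their group. This was noticed after the values were seen and not tested, and has no share over all genes beside it. In every other library at most 5 of the 10 receptors were highest, and at most 5 lowest, of the group. Of the 4 A391T cerebellum libraries, CBLM461 had the highest level of 7 of the 10 receptors (Htr1a, Htr1d, Htr2a, Htr2c, Htr3a, Htr4 and Htr7), and also the highest mean log2 level of the hippocampus, brainstem, striatum, interneuron, deep layer and vessel lists. Its cortex neuron and Purkinje lists were the lowest of that group. Of the 4 wild-type cortex libraries, CTX480 had the lowest level of 7 of the 10, with Htr2a at 22.8 TPM against 36.7 to 44.7 TPM in the others and Htr1a at 14.1 TPM against 18.3 to 21.5 TPM. Htr3a, at 17.4 TPM, and Htr4, at 0.968 TPM, were highest in that same library, so its receptor levels did not all lie on one side. CTX480 also had the fewest counts on genes (20813432) and the largest share of reads not uniquely placed (12.1%) of the 16 libraries. Within wild-type cortex its meninges and vessel list was highest, at 274 TPM against 190 to 228 TPM, and its deep layer list lowest, at 164 TPM against 197 to 211 TPM. Its striatum list was lowest too, at 1121.5 TPM against 1202.7 to 1460.9 TPM, and by mean log2 at 6.13 against 6.35 to 6.59. Its interneuron list was highest by summed TPM, at 3342 against 2300 to 2578 TPM, but not by mean log2(TPM + 0.5), at 5.49 against 5.39 to 5.64. The part of these in its receptor levels was not tested.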
